A study of Mus musculus with 12 samples.

Results

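The insulin-like growth factor (Igf) genes were read in stromal cells sorted from mouse thymus. The 10 genes were taken by their symbols from the deposited gene table, which held 23306 symbols. They were the ligands Igf1 and Igf2, the receptors Igf1r and Igf2r, and the binding proteins Igfbp2, Igfbp3, Igfbp4, Igfbp5, Igfbp6 and Igfbp7. All 10 were found and all 10 passed the filter on low counts that was applied before testing. A gene could pass that filter through only the groups where it was high. The same applies to the other genes read below. A difference of such a gene describes a gene kept for being high in those groups. The cells came from C57 BL6 mice that carry a KitL-tomato reporter, in which red fluorescence marks cells that use the gene of Kit ligand, a growth factor for early blood and T-cell progenitors. All 4 groups carried the reporter and were sorted as cells without lineage markers that excluded the dye Dapi. Vascular endothelial cells (VEC) were CD31+ and EpCAM- and were split into tomato+ VEC and tomato- VEC. Thymic epithelial cells were EpCAM+ and CD31-. Those that were Ly51+, UEA1- and tomato+ are called tomato+ cTEC (cortical), and those that were UEA1+, Ly51- and tomato- are called tomato- mTEC (medullary). The cTEC and mTEC gates therefore differed in sort markers and in reporter signal together, so the 2 cannot be told apart. The 12 libraries were 3 for each group. The labels give no age and do not say whether the 3 came from separate mice, so p-values measure the spread between these libraries, which may be technical.

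Igf1 and Igf2 are secreted peptides that signal survival and growth through the receptor tyrosine kinase Igf1r. Igf2r, also called the cation-independent mannose 6-phosphate receptor, does not signal in this way: it takes up Igf2 for breakdown and carries enzymes to the lysosome. The Igfbp proteins bind both ligands outside the cell, hold them away from Igf1r and release them when proteases cut the binding protein. Igfbp6 prefers Igf2, Igfbp5 also attaches to matrix, and Igfbp7 binds the ligands only weakly.

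Igfbp5 and Igfbp7 were the most abundant members of epithelium and endothelium, and Igfbp2 lies next to Igfbp5 on chromosome 1 with 0 protein-coding genes between them. The 250 bases before the start of each of these 3 genes are shown to set their sequence beside their levels. They come from RefSeq with the build GRCm38.p6, which is not the build of the counts, and are written 5′ to 3′ on the strand of the gene. Igfbp2 (plus strand) is read from chr1:72824230-72824479, Igfbp5 (minus strand) from chr1:72874866-72875115 and Igfbp7 (minus strand) from chr5:77408046-77408295. Capitals mark the GC box GGGCGG, or its reverse complement CCGCCC, and the palindrome TTTAAA.
Igfbp2: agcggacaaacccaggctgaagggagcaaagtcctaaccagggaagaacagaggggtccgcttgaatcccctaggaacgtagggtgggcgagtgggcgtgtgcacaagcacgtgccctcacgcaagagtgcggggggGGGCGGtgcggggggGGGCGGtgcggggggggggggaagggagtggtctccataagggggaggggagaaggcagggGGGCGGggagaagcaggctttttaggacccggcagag
Igfbp5: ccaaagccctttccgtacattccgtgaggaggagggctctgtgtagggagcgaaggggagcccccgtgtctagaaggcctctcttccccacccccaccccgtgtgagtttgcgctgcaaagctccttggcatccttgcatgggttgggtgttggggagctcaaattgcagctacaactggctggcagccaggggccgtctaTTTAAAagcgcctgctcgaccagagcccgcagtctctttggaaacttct
Igfbp7: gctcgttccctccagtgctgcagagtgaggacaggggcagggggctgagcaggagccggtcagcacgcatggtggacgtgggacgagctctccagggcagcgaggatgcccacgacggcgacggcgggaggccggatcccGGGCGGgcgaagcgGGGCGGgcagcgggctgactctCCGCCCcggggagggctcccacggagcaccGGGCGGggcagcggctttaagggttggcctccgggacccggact
The Igfbp7 window held 26 CpG and 4 GC boxes, the Igfbp2 window 14 CpG and 3 GC boxes, and the Igfbp5 window 10 CpG, 0 GC boxes and 1 TTTAAA. RefSeq lists another start for Igfbp2, whose window held 0 GC boxes. Over 32851 windows of the same length the median was 6 CpG, 32.7% held a GC box on either strand and 12.1% held TTTAAA. No match of 1 motif overlapped a match of another. Of all 14 windows of the 10 genes, TATAAA (either strand, 12.4% of all windows) was found 1 time each before Igfbp4 and Igfbp6. These matches describe the letters and do not show that a factor binds.

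Total counts per library were 8388869 to 11807130. Levels of a gene between groups are given as CPM (counts scaled to library size), adjusted by TMM factors, and levels between genes as the deposited RPKM, which also divides by length. The sort labels held in the markers: Pecam1, which encodes CD31, was at 2377 to 5450 CPM in the 6 VEC libraries, and the 7 epithelial markers summed to 0.779 to 1.82 CPM there against 3509 to 4552 CPM in the 6 epithelial libraries. Tests used edgeR's quasi-likelihood fit over all 12 libraries with adjustment over 14792 genes, and a gene was called where the adjusted p was under 0.05. RNA was measured per sorted population, so fewer cells of a type and less RNA per cell cannot be told apart. Library 2 of tomato+ cTEC stood apart in endothelial markers: all 8 were above both other cTEC libraries, Pecam1 was 108 CPM against 1.74 and 0.433, and their sum was 4.28% of the tomato+ VEC mean.

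Some members differed in RNA level between endothelium and epithelium. Endothelial libraries were dominated by Igfbp7 and had more Igf2r, while epithelial libraries were dominated by Igfbp5 and held nearly all of the Igfbp2 and Igfbp6. Igf1 and Igf1r were present in all 12 libraries, and Igf2 was low. In the mean of both VEC groups against the mean of both epithelial groups, 3 members were higher (Igf2r, Igfbp3, Igfbp7) and 3 lower (Igfbp2, Igfbp5, Igfbp6) of 10, where 36.3% of all tested genes were called. The median log2 difference was 0.15 over the 10 genes and -0.18 over all genes. For Igfbp3 the cTEC libraries lay within the VEC range, and only mTEC was under it. Those 6 of 10 came from a comparison that called a large share of the transcriptome.

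**Figure D1:**
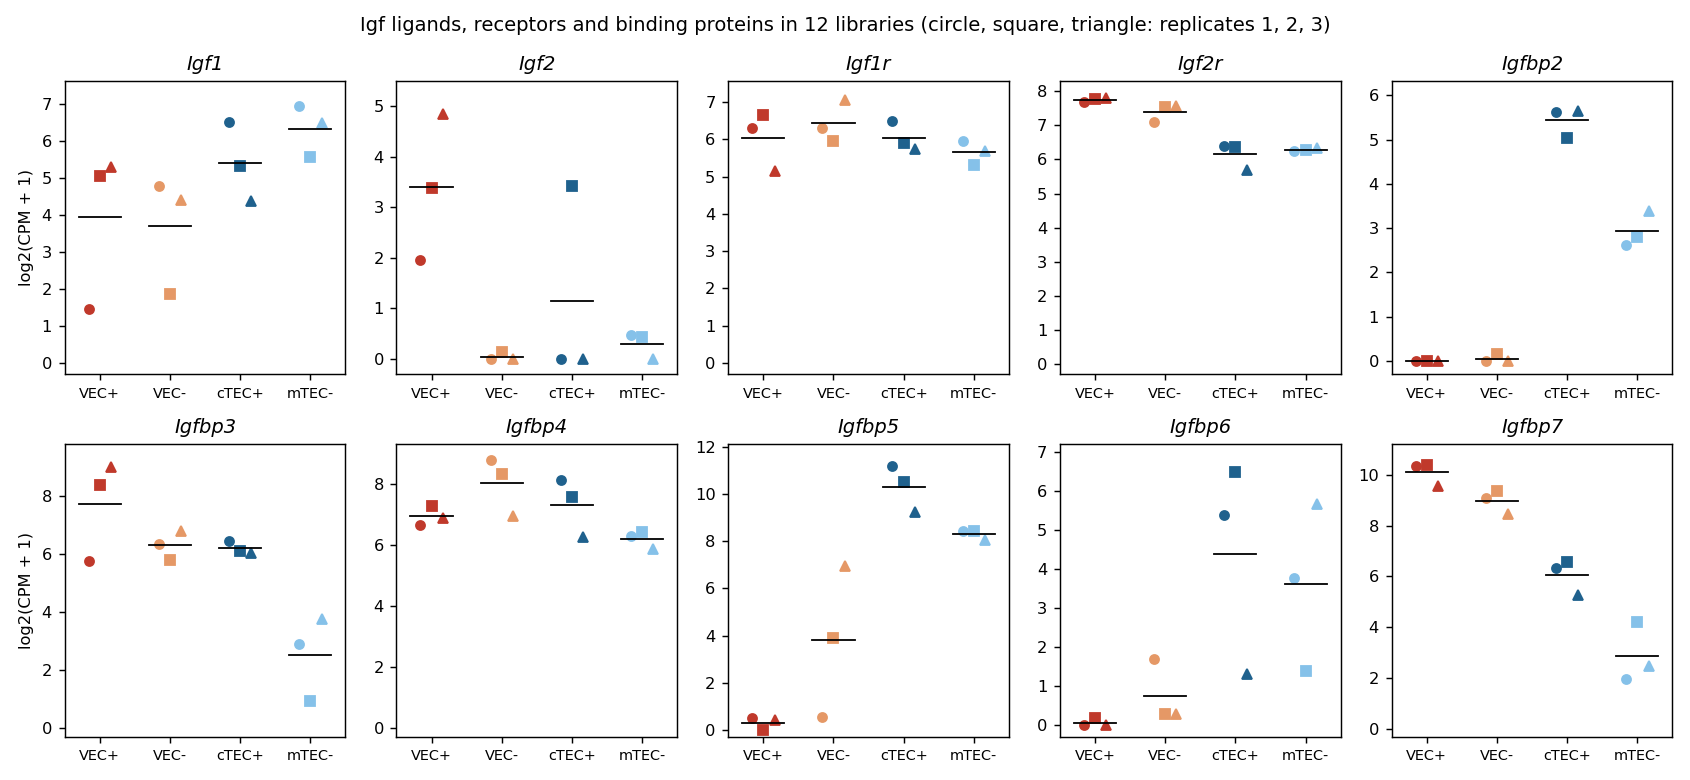
Levels of the 10 genes as log2(TMM-scaled CPM + 1), with 1 point per library and a bar at the mean of the 3 libraries of a group; VEC+ and VEC- are tomato+ and tomato- VEC, cTEC+ is tomato+ cTEC and mTEC- is tomato- mTEC. Igf2r and Igfbp7 are higher in all 6 VEC libraries than in any epithelial library, Igfbp2 and Igfbp5 are lower in all 6, and Igf2 is above 2 CPM only in tomato+ VEC and in cTEC library 2.

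Igf1, the ligand best known as the mediator of growth hormone, was 1.77, 32.4 and 38.2 CPM in tomato+ VEC and 26.7, 2.66 and 20.3 CPM in tomato- VEC. It was 89.8, 38.8 and 19.8 CPM in tomato+ cTEC and 122.7, 46.5 and 89.3 CPM in tomato- mTEC. Each VEC group had 1 library far under the other two, and cTEC overlapped every other group, while all 3 mTEC libraries were above all 6 VEC libraries. The order of the means was mTEC, cTEC, tomato+ VEC, tomato- VEC, and no neighbours in it differed (adjusted p 0.507 to 0.857 in edgeR). Endothelium against epithelium gave a log2 difference of -1.71 ± 0.71 (SE) with an edgeR adjusted p of 0.0799, so Igf1 was not called. DESeq2, limma voom and limma-trend did call it, with adjusted p values of 0.0209, 0.033 and 0.0188, and edgeR without tomato+ cTEC replicate 1 gave 0.206.

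Igf2, the fetal growth ligand of an imprinted locus, was 2.91, 9.42 and 28.1 CPM in tomato+ VEC, from 28, 72 and 262 counts. In tomato- VEC it had 0, 1 and 0 counts. All 3 tomato+ libraries were above all 3 tomato- libraries, yet the tomato+ libraries themselves spread 9.64-fold. Igf2 passed the filter on low counts only because of tomato+ VEC, the group where it was high. The lack of overlap, the ratio and the calls that follow therefore describe a gene kept for being high there. The summed counts of 362 against 1 gave a ratio of 372 with a 95% exact interval of 66.3 to 14721, which covers counting error only. The edgeR adjusted p was 0.157, so the difference was not called, while DESeq2 (adjusted p 0.0139) and limma voom (0.041) called it. H19, the non-coding RNA that neighbours Igf2 in the imprinted domain, had 714 counts in tomato+ VEC library 3, the library highest in Igf2, and 0 in the other 11. The link between the 2 genes was not tested. The transcript listed as Igf2as had 0 to 2 counts in every library, and whether the counting used strand is not given in the sources used here.

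In epithelium Igf2 had 0, 100 and 0 counts in cTEC and 4, 3 and 0 in mTEC. All of the cTEC signal, 9.80 CPM, came from library 2, the one with the endothelial markers named above, and the part of those markers in it was not tested. With that library, tomato+ VEC against tomato+ cTEC gave a log2 difference of 2.04 (edgeR adjusted p 0.507). Without it the difference was 10.07 (adjusted p 0.0222), and cTEC against mTEC turned from 3.70 to -4.30, called in neither case. With 0 counts in the remaining cTEC libraries these fitted values depend on the prior count.

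Igf1r, the signalling receptor, was called in no comparison. It varied within groups, by 2.87-fold in tomato+ VEC, 2.17-fold in tomato- VEC, 1.70-fold in cTEC and 1.59-fold in mTEC. In tomato+ VEC it was 77.6, 99.3 and 34.6 CPM. The values were 78.1, 61.5 and 133 CPM in tomato- VEC, 88.4, 58.7 and 52.0 in cTEC and 61.3, 38.5 and 50.4 in mTEC. The groups overlapped, except that the lowest tomato- VEC library, 61.5, lay just above the highest mTEC library, 61.3. Of the 8 comparisons, the largest edgeR log2 difference, tomato- VEC over mTEC, was 0.86 ± 0.44 (SE, adjusted p 0.176).

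Igf2r, the uptake receptor, differed between lineages and spread within groups by 1.06-fold (mTEC) to 1.64-fold (cTEC). It was 206, 217 and 222 CPM in tomato+ VEC and 135, 186 and 188 CPM in tomato- VEC. It was 83.9, 81.4 and 51.2 CPM in cTEC and 75.6, 76.2 and 80.4 CPM in mTEC. Every VEC library was above every epithelial library. The log2 difference of endothelium over epithelium was 1.36 ± 0.18 (SE), or 2.56-fold, with an edgeR adjusted p of 9.12e-05. Igf2r was also called in each of the 4 comparisons of a VEC with an epithelial group, from 1.14 (tomato- VEC over mTEC, edgeR adjusted p 0.00569) to 1.58 (tomato+ VEC over cTEC, 0.000851), and no alternative setting lost any of them. Tomato+ VEC libraries all lay above tomato- VEC libraries, but the difference of 0.34 was not called (edgeR adjusted p 0.551). Airn, an antisense RNA that overlaps Igf2r, had 14 to 221 counts per library in its own entry, and reads of the pair cannot be told apart if the counting was without strand. As a ratio of RPKM in the same library, Igf2r over Igf1r was 1.90 to 8.59 in VEC and 1.27 to 2.65 in epithelium, so the ranges overlapped.

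Igfbp2, a carrier of both ligands, was close to absent from endothelium. It had 0 counts in all 3 tomato+ VEC libraries and 0, 1 and 0 in tomato- VEC. It was 48.6, 31.8 and 48.8 CPM in cTEC and 5.11, 5.93 and 9.38 CPM in mTEC. No VEC library reached any epithelial one, and no mTEC library reached any cTEC one. Igfbp2 passed the filter on low counts only through the epithelial groups, where it was high. The lack of overlap with VEC, the ratios and the lineage call therefore describe a gene kept for being high there. Against a floor of 3 counts over the tomato+ VEC group, Igfbp2 was at least 385-fold higher in cTEC and at least 62.3-fold higher in mTEC. Against the 1 count of tomato- VEC the ratios of summed counts were 1186 (95% exact interval 213 to 46880) for cTEC and 192 (34.1 to 7616) for mTEC. These intervals, too, cover counting error only. Endothelium against epithelium had an edgeR adjusted p of 1.99e-05. Between the epithelial groups, cTEC was higher by 2.66 ± 0.82 on the log2 scale (SE), 6.31-fold, with an edgeR adjusted p of 0.084. DESeq2 (0.00055), limma voom (0.00643), limma-trend (0.000378) and edgeR on those 6 libraries alone (0.00508) called that difference.

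Igfbp3, the main carrier in blood, where it pairs with the product of Igfals, was lowest in mTEC. It was 54.0, 332 and 518 CPM in tomato+ VEC and 81.4, 54.8 and 112 in tomato- VEC. It was 87.9, 68.2 and 64.4 CPM in cTEC and 6.46, 0.930 and 12.7 in mTEC. All 9 libraries of the other 3 groups were above all 3 mTEC libraries, and tomato+ VEC held both the lowest and the highest of those 9. The log2 difference of cTEC over mTEC was 3.44 ± 0.85 (SE, edgeR adjusted p 0.03), or 10.9-fold. That call was lost with limma voom (0.26) and when any cTEC library or mTEC replicate 1 or 2 was left out (0.0535 to 0.103). Tomato- VEC over mTEC was 3.62 ± 0.86 (edgeR adjusted p 0.00862) and tomato+ VEC over mTEC was 5.48 ± 0.93 (0.00104). Limma voom called neither (adjusted p 0.16 and 0.0509), nor the difference of endothelium over epithelium (0.0592). Tomato- VEC against cTEC was 0.17 (edgeR adjusted p 0.929), and tomato+ VEC against cTEC was not called either (0.0893). Tomato+ VEC over tomato- VEC, at 1.86, was not called (edgeR adjusted p 0.27).

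Igfbp4, a carrier that is cut by the protease of Pappa, was 99.6, 156 and 119 CPM in tomato+ VEC and 440, 322 and 124 in tomato- VEC. It was 279, 188 and 76.6 CPM in cTEC and 76.9, 85.7 and 57.4 in mTEC. Tomato- VEC and cTEC each had 2 high libraries and 1 at the level of the other groups. Only tomato- VEC over mTEC was called among the 8 comparisons, with a log2 difference of 2.01 ± 0.50 (SE, edgeR adjusted p 0.011). Tomato+ VEC against tomato- VEC was -1.24 (edgeR adjusted p 0.228) and cTEC against mTEC was 1.31 (0.139).

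Igfbp5, the matrix-binding carrier, was the leading binding protein of epithelium. It was 2323, 1454 and 613 CPM in cTEC and 346, 342 and 268 CPM in mTEC. All cTEC libraries were above all mTEC libraries, but the log2 difference of 2.20 ± 1.12 (SE) was not called (edgeR adjusted p 0.308). Limma voom (adjusted p 0.0225) and edgeR on those 6 libraries alone (0.0118) called it, and the values over all alternatives ran up to 0.59. In tomato+ VEC it had 4, 0 and 3 counts, and in tomato- VEC 4, 130 and 1095 counts, or 0.445, 13.8 and 122.7 CPM. The tomato- VEC libraries thus ran from the tomato+ level to 276 times that of their lowest. The log2 difference of endothelium against epithelium was -7.60 ± 1.07 (SE, edgeR adjusted p 0.000167), and it was called in every alternative. Igfbp5 passed the filter on low counts only through the epithelial groups, where it was high. Its calls against VEC therefore describe a gene kept for being high there. The difference between tomato- VEC and cTEC, -5.00 (edgeR adjusted p 0.0158), was lost without tomato- VEC replicate 2 (0.067) and with only those 6 libraries, and that between tomato- VEC and mTEC was not called (0.0949) although the libraries did not overlap.

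Igfbp5 was the only one of the 10 called between tomato+ and tomato- VEC, where 1.65% of all tested genes were called. It entered this test through the epithelial libraries, where it was high. With only the VEC groups it did not pass the filter on low counts and was not tested. The log2 difference was -7.39 ± 1.61 (SE) with an edgeR adjusted p of 0.0415. It had the same sign in all 20 alternatives that tested the gene and lost the call in 13 of them, with adjusted p values from 1.93e-05 (DESeq2) to 0.492 (limma voom). Without tomato- VEC replicate 3, the highest library, it was -4.70 (edgeR adjusted p 0.0812). Leaving out any tomato+ VEC, cTEC or mTEC library also lost it, with values of 0.0518 to 0.109. Fits with 1 library left out also tested more genes, 15408 to 15890 against 14792, because the filter follows the smallest group. The loss of a call in them therefore does not show the effect of the left-out library alone. Pdpn, a lymphatic and epithelial surface protein, was 3.45, 24.8 and 48.2 CPM in the same tomato- VEC libraries and 0.104 to 0.392 CPM in tomato+ VEC. Of 10742 genes it was the one most like Igfbp5 over these data, so its match here is not separate evidence. The summed level of 5 lymphatic markers was 49.0 to 61.6 CPM in tomato+ VEC and 102 to 185 CPM in tomato- VEC. Flt4 made up nearly all of the tomato+ sum, at 53.2, 48.3 and 61.4 CPM, and was 17.7, 24.0 and 72.7 CPM in tomato- VEC, so that its groups overlapped. Lyve1 was at 0 in all 3 tomato+ libraries and at 78.2, 36.4 and 52.2 CPM in tomato- VEC, so it was highest in the library lowest in Igfbp5. Prox1 was at 0 in libraries 2 and 3 of both VEC groups, and Reln was at 0, 16.6 and 12.0 CPM in tomato- VEC. Epcam was at 0 to 0.2 CPM in VEC, and the 7 epithelial markers did not exceed 1.82 CPM in sum. The part of the lymphatic markers in the Igfbp5 difference was not tested.

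**Figure D2:**
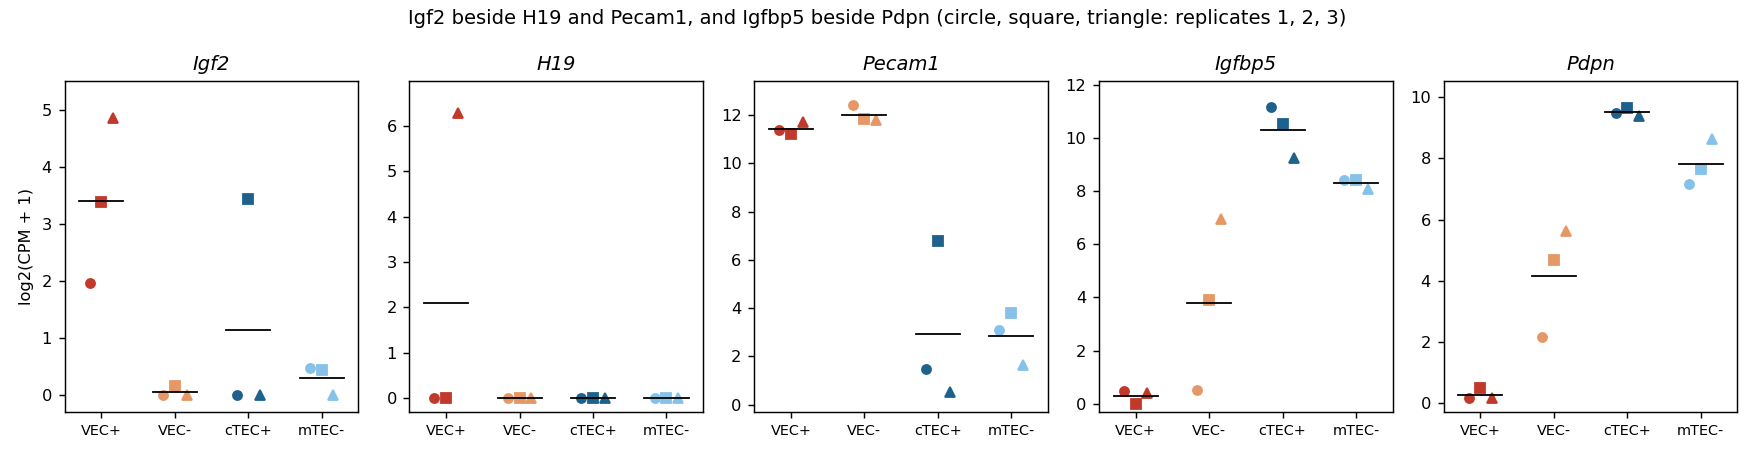
Levels as log2(TMM-scaled CPM + 1) of Igf2 beside H19 and Pecam1, and of Igfbp5 beside Pdpn, with 1 point per library, a bar at the group mean and the axes starting just under 0. The cTEC library with Igf2 is the cTEC library with the most Pecam1 (108 CPM), the library with H19 is the tomato+ VEC library with the most Igf2, and Igfbp5 and Pdpn rank the 3 tomato- VEC libraries alike. Pdpn was the gene most like Igfbp5 of 10742 in these same libraries, and the lymphatic marker Lyve1 (not drawn) ranks the tomato- VEC libraries otherwise.

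The 2 reporter contrasts of Igfbp5 went opposite ways: it was lower in the tomato+ VEC group, and in epithelium the log2 difference of cTEC over mTEC was 2.20. The difference between these contrasts was -9.59 ± 1.97 (SE, edgeR adjusted p 0.0249), and Igfbp5 was the only one of the 10 called, where 3.08% of all tested genes were. The call was lost in 9 of 20 alternatives: among them limma voom (adjusted p 0.259), and edgeR without any of the tomato+ VEC or mTEC libraries or cTEC replicate 1 (0.0515 to 0.0717). For Igfbp4 the same difference was -2.55 ± 0.69 (edgeR adjusted p 0.0693).

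Igfbp6, which favours Igf2, was present mainly in epithelium and was uneven there. It was 40.4, 88.3 and 1.47 CPM in cTEC, a range of 60.0-fold, and 12.6, 1.63 and 49.9 CPM in mTEC, a range of 30.6-fold. It had 0, 1 and 0 counts in tomato+ VEC and 20, 2 and 2 in tomato- VEC. The epithelial groups overlapped, and the lowest epithelial libraries lay within the tomato- VEC range but above all of tomato+ VEC. Against the 1 count of tomato+ VEC the ratios of summed counts were 1107 (95% exact interval 198 to 43760) for cTEC and 649 (116 to 25662) for mTEC. These intervals cover counting error only and leave out the wide spread between libraries. Igfbp6, too, passed the filter on low counts only through the epithelial groups. Its ratios and its calls against VEC therefore describe a gene kept for being high there. Endothelium against epithelium was called with a log2 difference of -7.14 ± 1.35 (SE, edgeR adjusted p 0.00137). Tomato- VEC against cTEC was called at -5.59 (edgeR adjusted p 0.0367) but lost in 7 of 21 alternatives, among them without cTEC replicate 1 or 2, without tomato- VEC replicate 2 or 3 and without mTEC replicate 1 (up to 0.114).

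Igfbp7, made by endothelium of many vessels, was the most abundant member in VEC. It was 1306, 1345 and 744 CPM in tomato+ VEC and 547, 664 and 348 CPM in tomato- VEC. It was 80.1, 93.2 and 37.7 CPM in cTEC and 2.89, 17.4 and 4.57 CPM in mTEC. The 4 groups did not overlap anywhere, in the order tomato+ VEC, tomato- VEC, cTEC, mTEC. The log2 difference of endothelium over epithelium was 4.99 ± 0.47 (SE), 31.9-fold, with an edgeR adjusted p of 6.56e-06. Tomato- VEC over cTEC was 2.89 ± 0.60 (edgeR adjusted p 0.0049) and cTEC over mTEC was 3.09 ± 0.61 (0.0116), the last lost with limma voom (0.133). The top neighbours, tomato+ over tomato- VEC, differed by 1.12 ± 0.56 and were not called in edgeR (adjusted p 0.36) but were in limma voom (0.0431).

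**Figure D3:**
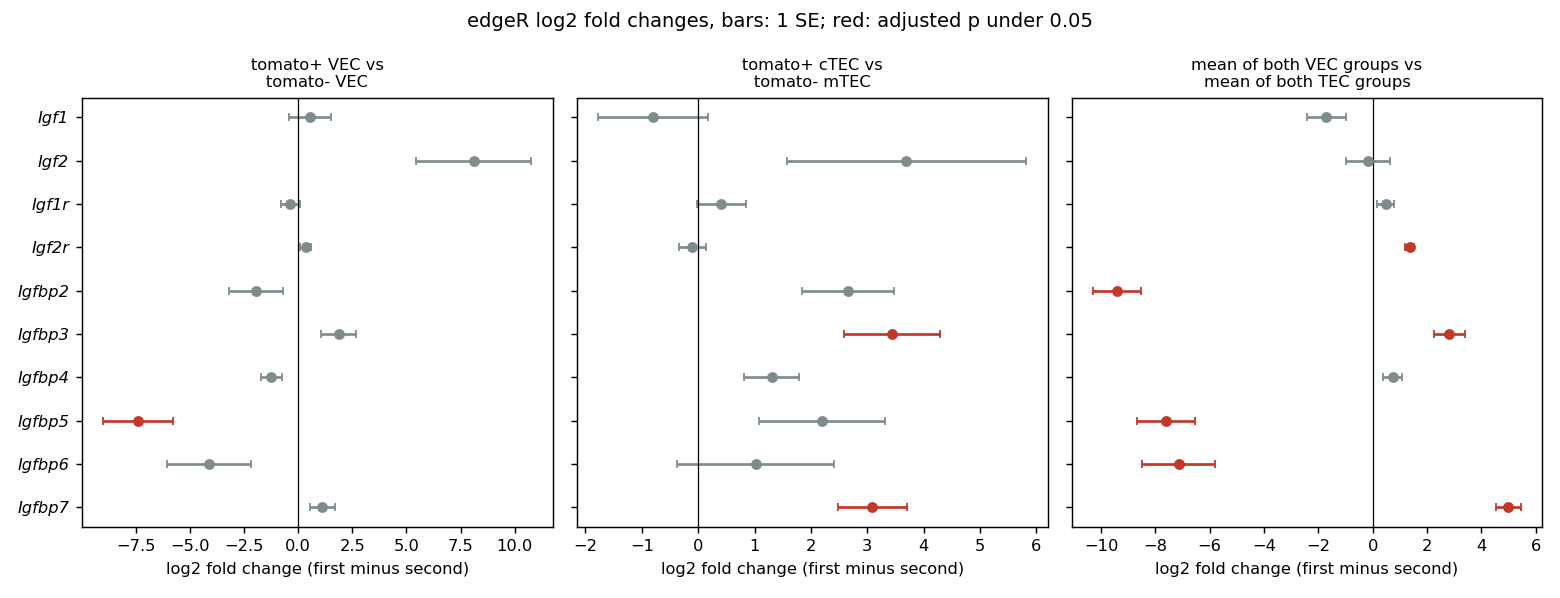
edgeR log2 differences of the 10 genes (first group minus second) with bars of 1 SE, for the VEC groups by reporter (left), cTEC against mTEC (middle), and endothelium against epithelium (right); red points had an adjusted p under 0.05. Only Igfbp5 is red in the first panel, Igfbp3 and Igfbp7 in the second, and Igf2r and 5 binding proteins in the third. The panels have different scales, and the points of genes with 0 or 1 counts in a group depend on the prior count.

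Across the other pairs, cTEC against mTEC called 2 members (Igfbp3 and Igfbp7, both higher in cTEC) where 7.83% of all tested genes were called, with a median log2 difference of 1.75 over the 10 and 0.02 over all genes. Tomato+ VEC against tomato+ cTEC called 2 higher and 3 lower where 21.9% of genes were called. Tomato- VEC against tomato- mTEC called 4 higher (Igf2r, Igfbp3, Igfbp4, Igfbp7) and 1 lower (Igfbp2) where 27.5% were. For tomato+ VEC against mTEC the count was 3 higher and 3 lower, against 31.8% of genes, and for tomato- VEC against cTEC 2 higher and 3 lower, against 19.2%. These comparisons share groups with each other. Igf1, Igf2 and Igf1r were called in none of the 8, and Igf2r, Igfbp2 and Igfbp7 in every comparison of a VEC with an epithelial group.

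The make-up of the binding proteins was compared per length. Igfbp7 was the top Igfbp in all 6 VEC libraries, at 64.5% to 93.9% of the summed RPKM of the 6 Igfbp genes, and Igfbp5 was the top in all 6 epithelial libraries, at 35.7% to 56.5%. In RPKM, Igfbp7 was 841 ± 246 (SD, n = 3) in tomato+ VEC and 402 ± 116 in tomato- VEC, and Igfbp5 was 278 ± 165 in cTEC and 57.2 ± 7.82 in mTEC. Igfbp4 came next in tomato- VEC, cTEC and mTEC, at 133 ± 68.6, 97.7 ± 55.4 and 37.3 ± 6.99 RPKM, whereas Igfbp3 did in tomato+ VEC, at 112 ± 87.2. The summed RPKM of the 6 was 1007 ± 196 in tomato+ VEC, 576 ± 148 in tomato- VEC, 547 ± 267 in cTEC and 127 ± 7.02 in mTEC. All libraries of mTEC were under those of every other group, and tomato+ VEC was above every other library. These sums are not adjusted by the TMM factors, which were 0.893 to 0.982 in VEC and 1.03 to 1.12 in epithelium. The ligands were far lower than these sums: Igf1 was 3.08 ± 2.50, 2.19 ± 1.63, 7.73 ± 5.71 and 12.8 ± 5.92 RPKM in the same order of groups. Igf2 was 3.03 ± 2.95, 0.00821 ± 0.0142, 0.902 ± 1.56 and 0.0637 ± 0.0556 RPKM. Single binding proteins could be lower than Igf1. In mTEC its mean was above those of Igfbp7 (7.09), Igfbp2 (5.40) and Igfbp3 (2.91).

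**Figure D4:**
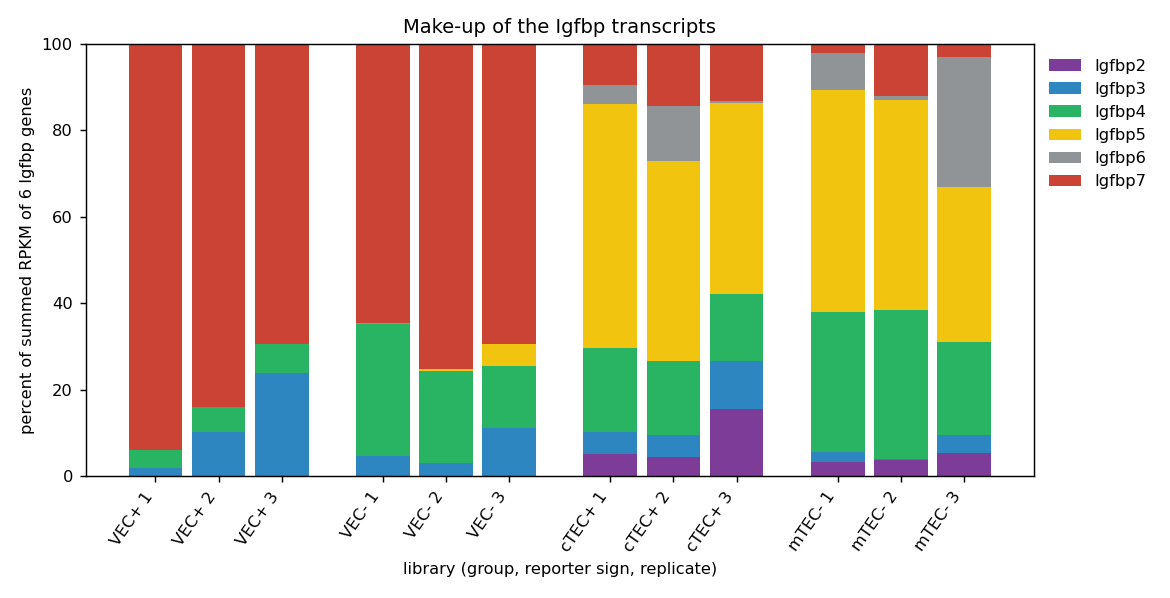
Share of each gene in the summed deposited RPKM of the 6 Igfbp genes, with 1 stacked bar per library from 0 to 100%. Igfbp7 (red) fills 64.5% to 93.9% of the VEC bars, Igfbp5 (yellow) 35.7% to 56.5% of the epithelial bars, and Igfbp6 (grey) ranges from 0.482% to 30.1% among the epithelial libraries.

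Over the 12 libraries, the correlation of log2(CPM + 1) followed the lineages for some members. Igfbp2 and Igfbp5 had r = 0.871 and Igf2r and Igfbp7 had r = 0.849, while Igf2r and Igfbp2 had r = -0.894. Other members followed them less: Igfbp3 and Igfbp5 had r = -0.501, Igfbp4 and Igfbp7 had 0.563, and Igf1r did not exceed 0.381 with any member. The genes most like Igfbp7 were Gpr56 (r = 0.997) and Sdpr (0.986), those most like Igf2r were Nav1 (0.977) and Nus1 (0.973), and those most like Igfbp3 were Itga1 (0.953) and Rsu1 (0.937). For Igfbp2 they were Defb1 (0.997) and Cobl (0.995), and for Igfbp5 they were Pdpn (0.978) and Ptn (0.977). The nearest to Igf1 was Itpa (0.934), to Igfbp4 Rere (0.920), to Igfbp6 Bdh2 (0.901) and to Igf1r Slc30a9 (0.856). They were picked from 10742 genes over only 12 libraries that fall into 4 groups, so these values are descriptions.

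Genes that carry the signal inside the cell were read from a list of 26, of which 23 were tested. Endothelium against epithelium called 10 higher and 4 lower, where 36.3% of all tested genes were called. Irs1, the adaptor that links Igf1r and the insulin receptor to PI3 kinase, was 0 to 0.214 CPM in the 6 VEC libraries, 80.7, 104.8 and 125.5 CPM in cTEC and 35.3, 33.3 and 22.8 CPM in mTEC (edgeR adjusted p 4.51e-07). Irs2, its relative, was 0 to 0.223 CPM in VEC, 2.35 to 11.6 in cTEC and 0 to 20.8 in mTEC (edgeR adjusted p 0.00506). Pik3r2, a regulatory subunit of PI3 kinase, was 0 to 1.35 CPM in VEC and 12.2 to 36.6 CPM in epithelium (edgeR adjusted p 0.000648). Higher in endothelium were Foxo1, a transcription factor that this pathway holds out of the nucleus, by 2.17 ± 0.24 on the log2 scale (SE, edgeR adjusted p 2.82e-05), the adaptor Grb10 by 1.79 ± 0.28 (0.000363) and Pik3r3, another PI3 kinase subunit, by 2.53 ± 0.53 (0.00279). The median log2 difference of the 23 was 0.34, and -0.18 over all genes. Between the VEC groups, where 1.65% of all tested genes were called, edgeR called 0 of 23. An unadjusted edgeR p under 0.05 was seen for 7 of the 23, against 2392 of all 14792 genes. DESeq2 called 2, limma voom 1 and limma-trend 1, all lower in tomato+ VEC. Of all tested genes these methods called 8.33%, 4.06% and 3.2% in that contrast. Insr, the insulin receptor, was not called and was chosen after its values were seen: it was 87.6, 35.6 and 56.9 CPM in tomato+ VEC and 207, 317 and 221 CPM in tomato- VEC, without overlap (log2 difference -2.05 ± 0.49, SE, edgeR adjusted p 0.063). Between cTEC and mTEC, where 7.83% of all tested genes were called, 2 of the 23 were, Foxo1 (1.80 ± 0.34, edgeR adjusted p 0.00935) and the kinase gene Gsk3b (0.74 ± 0.20, 0.0382), the second lost in 11 of 21 alternatives.

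Proteases and partners that free or hold the ligands formed a list of 14, of which 13 were tested. Endothelium against epithelium called 3 higher and 6 lower, against 36.3% of all tested genes, with a median log2 difference of -1.64 against -0.18 over all genes. Stc1, an inhibitor of the protease of Pappa, was 109 to 358 CPM in the 6 VEC libraries and 1.28 to 16.6 CPM in epithelium (log2 difference 5.12 ± 0.47, SE, edgeR adjusted p 6.03e-06). In the other direction the log2 difference was -2.27 ± 0.40 for Mmp2 (edgeR adjusted p 0.000835), -2.13 ± 0.43 for Htra1 (0.0023) and -1.64 ± 0.36 for Mmp14 (0.00344), all of them secreted or surface proteases. Between cTEC and mTEC (7.83% of all tested genes called) 1 was higher, Mmp2 (2.21 ± 0.56, edgeR adjusted p 0.0326, lost in 6 of 21 alternatives), and 3 were lower. Igfals, the partner of Igfbp3 in blood, had 38.6, 42.8 and 18.9 CPM in mTEC and 0 in all cTEC libraries (edgeR adjusted p 0.00629). Adam12 was 18.5 to 29.6 CPM in mTEC and 0 to 0.0917 in cTEC (edgeR adjusted p 0.00495), and Pappa2 was 1.45 to 10.2 and 0 to 0.098 (0.0462, lost in 14 of 20). Igfals, Adam12 and Pappa2 passed the filter on low counts only because of mTEC, the group where they were high. Their calls therefore describe genes kept for being high there. Between tomato+ and tomato- VEC (1.65% of all tested genes called) only Ctsd, a lysosomal protease, was called, with a log2 difference of -1.76 ± 0.39 (edgeR adjusted p 0.0455, lost in 11 of 21).

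Of 12 other genes with an Igfbp-type domain 8 were tested, and endothelium against epithelium called 4 higher and 2 lower, with Htra1 counted again. The comparison called 36.3% of all tested genes, and the median log2 difference was 1.69 over the 8 and -0.18 over all genes. Nov, a matrix protein, was 43.8 to 125 CPM in VEC, 0.0866 to 0.098 in cTEC and 2.16 to 6.05 in mTEC (edgeR adjusted p 2.12e-07 for the lineages and 0.000574, lower in cTEC, for the epithelial groups). Esm1, an endothelial proteoglycan, was 43.1 to 99.9 CPM in tomato+ VEC, 0.111 to 27.5 in tomato- VEC and 0 to 0.183 in epithelium (edgeR adjusted p 0.000322 for the lineages). Igfbp1, which was not tested, had 146 counts in mTEC library 3 and 0 or 1 in the other 11. Among 6 regulators of the Igf2 transcript 3 were tested and 1 was called in endothelium against epithelium, Igf2bp2, with 0 counts in tomato- VEC, 0 to 4.39 CPM in tomato+ VEC and 2.09 to 15.0 CPM in epithelium (edgeR adjusted p 0.0115). Of 15 imprinted genes 12 were tested, and between the VEC groups (1.65% of all tested genes called) only Cdkn1c, a growth inhibitor, was called: 58.2, 29.2 and 18.96 CPM in tomato+ and 0.111, 2.02 and 0.224 CPM in tomato- VEC (edgeR adjusted p 0.0496, lost in 11 of 21 alternatives). In endothelium against epithelium, where 36.3% of all tested genes were called, 3 of the 12 were higher (Grb10, Gnas and Mest) and 4 lower, among them Dcn, and the median log2 difference was -0.10.

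Markers of cell types moved with some groups. The 5 cortical markers summed to 8515 to 10282 CPM in cTEC and 1303 to 2916 in mTEC, and the 6 medullary markers to 230 to 551 and 4127 to 5520 CPM. The cortical sum was also 938 to 1159 CPM in tomato+ VEC and 4744 to 6276 CPM in tomato- VEC, of which the lysosomal protease gene Ctsl alone was 937 to 1158 and 4731 to 6275 CPM, while Psmb11, a cortical proteasome subunit, was at 0 to 0.312 CPM in all 6. The 6 arterial markers summed to 828 to 853 CPM in tomato+ VEC and 64.9 to 117 CPM in tomato- VEC, and the 6 venous markers to 602 to 1396 and 7812 to 8048 CPM. The tomato+ and tomato- VEC libraries thus did not overlap in these sums, and the part of these markers in the Igfbp5 difference was not tested. The 9 fibroblast markers summed to 1635 to 2239 CPM in cTEC, of which Dcn alone was 1559 to 2057, to 219 to 501 CPM in mTEC and to 42.4 to 140 CPM in VEC. Dcn was also 116 to 370 CPM in mTEC and so made up most of these sums in epithelium. The other members differed among themselves. Col3a1 was highest in cTEC (14.4 to 72.1 CPM), Mfap5 reached its highest value in mTEC (108), and Fbn1 was 7.52 to 42.9 CPM in cTEC and 75.0 to 130 in tomato+ VEC. With the VEC groups pooled, the means of Igfbp5 fell in the order of the fibroblast sums, cTEC, mTEC, VEC. Between the VEC groups the orders were opposite. The fibroblast sum was 99.9 to 140 CPM in tomato+ VEC and 42.4 to 97.9 CPM in tomato- VEC. Mean Igfbp5 was 0.246 CPM in tomato+ VEC and 45.7 CPM in tomato- VEC. The part of the fibroblast markers in the levels of Igfbp5 was not tested. In the same libraries 8 pericyte and smooth muscle markers summed to 69.8 to 483 CPM in VEC and 485 to 1608 in epithelium, 5 mesothelial markers to 0.212 to 0.560 and 135 to 319 CPM, 9 macrophage and dendritic markers to 13.3 to 119 and 14.3 to 120 CPM, and 9 thymocyte markers to 2.23 to 33.0 and 18.4 to 91.8 CPM.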

How the data were processed

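Poly(A) RNA from sorted cells was turned into cDNA with the SMARTer kit for low input and sequenced, per the labels' protocols. Reads were aligned with TopHat2 2.0.10 to the build mm9, per the submitters' processing notes; which counter, annotation or strand setting was used is not given in the sources used here. In the deposited table stand a raw read count and an RPKM value per gene and library, per the file headers. Tests on counts used edgeR 4.0.16 under R 4.3.3 (filterByExpr with a minimum count of 10, TMM, quasi-likelihood, 1 term per group, all 12 libraries, 8 residual degrees of freedom, Benjamini-Hochberg over 14792 genes, threshold 0.05). The common dispersion was 0.624. SE is the log2 difference over the root of F. Levels are TMM-scaled CPM and deposited RPKM, as mean ± SD. For groups at 0 counts the floor was 3 counts over the group. Alternatives were DESeq2 1.42.0, limma 3.58.1 (voom, and trend on log2(RPKM + 1)), other scaling, filters of none or 5 CPM in 3 libraries, only the groups compared, robust dispersions, a replicate block and leaving out each library. Scripts were tested on simulated counts. The 10 genes, the gene lists and the markers were chosen with earlier results of these data known. All 10 genes are named, and of each list at most 3 called genes per direction with the smallest p. Patterns were compared among genes with a mean of at least 5 CPM.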

Additional observations from a re-analysis of the deposited data

Results flagged for a closer look

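The reporter contrast of Igfbp5 was called as different between the lineages by a test of the difference itself. The VEC contrast minus the epithelial contrast was -9.59 on the log2 scale (edgeR adjusted p 0.0249). The call was lost in 9 of 20 alternatives, among them limma voom (0.259), the replicate block (0.0601) and 7 fits with 1 library left out (0.0515 to 0.0717), and the epithelial contrast alone was not called (0.308). It rests on 0 to 4 counts per tomato+ VEC library and on tomato- VEC libraries of 4, 130 and 1095 counts, and in epithelium the reporter and the gate changed together.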

How the results depend on the processing

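Of 80 pairs of a gene and a comparison, 31 were called. In 643 alternatives of those 31, 602 kept the call, 41 lost it and 0 changed sign. In 1011 alternatives of the other 49 pairs, 43 became called and 21 changed sign. The number of the 10 genes called between tomato+ and tomato- VEC, 1, became 2 with DESeq2, 2 with limma voom, and 0 with only the groups compared, with the replicate block and with limma-trend. With only the VEC groups Igfbp5 did not pass the filter on low counts and was not tested. For cTEC against mTEC the number called went from 2 to 4 with only the groups compared. For the difference of the contrasts it went from 1 to 2 with DESeq2, 0 with limma voom, 0 with the replicate block and 3 with limma-trend. Fits with 1 library left out tested 15408 to 15890 genes in place of 14792, as the filter follows the smallest group. Leaving out 1 library gave 0 to 1 for the VEC contrast, 1 to 2 for cTEC against mTEC, 0 to 2 for their difference, 6 to 7 for endothelium against epithelium, 5 to 6 for tomato+ VEC against cTEC, 5 to 6 for tomato- VEC against mTEC, 6 to 7 for tomato+ VEC against mTEC and 3 to 5 for tomato- VEC against cTEC.

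Log2 differences that changed sign, none of them called, were those of Igf2 between the lineages (-0.16; 1.89 with limma voom, 0.55 with the replicate block, 0.52 with limma-trend, and -1.09 to 3.85 with 1 library left out), Igf1r in tomato+ VEC against cTEC (0.09; -0.037 with limma voom, -0.24 with limma-trend, -0.15 to 0.49 with 1 library left out) and Igfbp3 in tomato- VEC against cTEC (0.17; -0.10 with limma-trend, -0.11 to 0.43 with 1 library left out). With 1 library left out, so did Igf1r between the VEC groups (-0.64 to 0.035), and, in cTEC against mTEC, Igf2 (-4.30 to 4.33), Igfbp6 (-0.071 to 2.64) and Igf2r (-0.26 to 0.14). Igf2 in tomato- VEC against cTEC ranged from -7.95 to 1.94, the last without cTEC replicate 2. The causes were not tested. Relative log expression scaling moved the median of all genes in tomato- VEC against mTEC from -0.15 to -0.33 and changed the sign of none of the 10 genes. The deviations of same-numbered replicates correlated weakly (r of -0.0136 to 0.0768 over 18 pairs), under the 0.1 asked of every pair, so the numbers were not taken to pair the samples, although 8 of 12 libraries correlated best with their own number. With the replicate block the Igfbp5 difference between the VEC groups had an adjusted p of 0.105 in edgeR and the difference of its contrasts 0.0601. The share of all tested genes called ranged over the alternatives from 1.01% to 8.33% for the VEC contrast (1.65% as reported), 2.78% to 17.7% for cTEC against mTEC (7.83%) and 1.03% to 11.9% for their difference (3.08%). With no filter, which tests more genes, it fell to 23.7% for endothelium against epithelium, 13.8% for tomato+ VEC against cTEC, 17.3% for tomato- VEC against mTEC, 20% for tomato+ VEC against mTEC and 12% for tomato- VEC against cTEC. Genes with under 10 counts in a group are limited by depth.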
